A study of Rattus norvegicus with 8 samples.

Results

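The xenobiotic and aldehyde metabolising enzymes were taken as the cytochrome P450 (Cyp), aldehyde dehydrogenase (Aldh), aldo-keto reductase (Akr), carboxylesterase (Ces), flavin monooxygenase (Fmo), glutathione S-transferase (Gst), sulfotransferase (Sult) and UDP-glucuronosyltransferase (Ugt) genes, with nicotinamide N-methyltransferase (Nnmt). They were chosen by gene name from the array's annotation, with Cyp51 left out. The name rule used no measured value, but it was chosen with earlier results of these data known. This gave 269 of 45598 non-control probes, which stood for 188 of 36305 gene names. Expression was measured on 1-colour Agilent arrays in NR8383 cells, a line of alveolar macrophages derived from a rat. The NM401 group was treated for 4 h with the multi-walled carbon nanotube NM401 at 0.17 µg/mL, and the control group had the same 4 h without nanotubes, both in medium with no serum. Each group had 4 arrays, of biological replicates per the series design.

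Phase I enzymes such as cytochrome P450s, flavin monooxygenases, carboxylesterases, aldehyde dehydrogenases and aldo-keto reductases oxidise, hydrolyse or reduce foreign compounds and reactive aldehydes. Phase II enzymes then attach glutathione, glucuronic acid, sulfate or a methyl group, which usually makes the product easier to export. The families are best known from the liver, where the receptors AHR, CAR, PXR and PPARα and the factor NRF2 drive many of them, while macrophages keep some members for the oxidation of fatty acids, eicosanoids, sterols and lipid peroxidation aldehydes. The name rule therefore also took in enzymes with mainly endogenous substrates, among them the steroid enzyme gene Cyp21a1, the vitamin D enzyme genes Cyp2r1 and Cyp27b1, and Aldh18a1, which acts in proline synthesis.

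Values below are log2 of the background-subtracted signal minus the 75th percentile of the same array, so they compare 1 probe between arrays and not one gene with another. A probe was tested when it stood well above background, by the scanner software's own call, on at least 4 of the 8 arrays. A gene was represented by its brightest tested probe. Differences (NM401 minus control) carry the limma standard error (SE), and calls were made where the adjusted p was under 0.05. The 75th percentile itself was 2692 ± 172 intensity units on NM401 arrays and 1236 ± 224 on control arrays (SD, n = 4 each). Slide 1 carried all the controls and NM401 replicate 1, slide 2 the other NM401 arrays, so a slide effect can be examined only through NM401 replicate 1. Control arrays lay in one row of a slide and NM401 arrays in the other, and the row cannot be told apart from the group. Relative to the 75th percentile the 7 spike-in probes averaged 0.93 ± 0.21 on NM401 arrays and 3.22 ± 0.48 on control arrays, a difference of -2.29. Higher, lower, rose and fell therefore mean relative to the RNA signal on each array. Of the 36 enzyme genes called lower in the results that follow, 3 had a difference beyond that of the spike-ins. RNA of whole cultures was measured, in which fewer expressing cells and less RNA per cell cannot be told apart.

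The probes of the genes with the largest differences are 60 bases long and are printed here as deposited, 5′ to 3′, because several of these genes belong to families with close relatives. Positions are those of the files on rat build rn4. The Ces2a probe lies at chr19:38952-39011 on the minus strand, the Nnmt probe at chr8:51871591-51871650 on the minus strand, the Ugt1a6 probe at chr9:87098271-87098330 on the plus strand and the Gsta2 probe at chr8:83299283-83299342 on the minus strand.
Ces2a: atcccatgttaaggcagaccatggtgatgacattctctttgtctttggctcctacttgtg
Nnmt: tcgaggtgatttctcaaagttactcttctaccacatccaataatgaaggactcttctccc
Ugt1a6: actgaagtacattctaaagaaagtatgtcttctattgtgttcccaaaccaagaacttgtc
Gsta2: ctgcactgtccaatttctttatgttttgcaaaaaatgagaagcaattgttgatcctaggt

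Some member probes can take up RNA of more than 1 gene. The Cyp2d1 probe (chr7:120769703-120769762, minus strand) and the Cyp2d5 probe (chr7:120760436-120760495, minus strand) were identical at 56 of the 58 bases they share, and the Cyp4f5 probe (chr7:13132776-13132835, plus strand) and the Cyp4f37 probe (chr7:13169305-13169364, plus strand) at 50 of 51. These 4 sequences are shown because values of each pair cannot be assigned to 1 gene with certainty, and capitals mark the bases that differ within the shared stretch.
Cyp2d1: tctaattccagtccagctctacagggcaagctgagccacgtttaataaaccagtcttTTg
Cyp2d5: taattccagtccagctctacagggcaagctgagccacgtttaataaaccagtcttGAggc
Cyp4f5: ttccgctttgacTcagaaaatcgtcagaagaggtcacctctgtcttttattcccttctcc
Cyp4f37: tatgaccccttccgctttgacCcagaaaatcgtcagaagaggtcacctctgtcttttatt
The annotation also lists transcripts of both Ces2 and Ces2c for the probes of these 2 genes, and of Ugt1a5, Ugt1a6 and Ugt1a7c for the brightest Ugt1a6 probe. The UGT1A genes share their last exons, so that probe reads the locus rather than 1 of its transcripts.

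Of the 188 enzyme genes, 69 passed the filter with 96 probes, 22 more had a probe well above background on 1 to 3 arrays, and 97 had none on any array. The families differed in how many of their genes were tested. The filter passed 22 of 79 Cyp genes, 11 of 19 Aldh, 12 of 20 Akr, 6 of 15 Ces, 1 of 6 Fmo, 10 of 21 Gst, 3 of 14 Sult and 3 of 13 Ugt genes, and Nnmt. No Cyp1 gene was well above background on any array, at any of the 6 probes of Cyp1a1, Cyp1a2 and Cyp1b1, which are classical AHR targets. The same held for the 4 Aldh1a genes, which include the retinal dehydrogenase genes, for the 4 Sult2 genes, and for Aldh3a1, Cyp2e1 and Cyp7a1. Most mu-class transferase genes (6 of 8 Gstm genes) and the kappa-class gene Gstk1 were likewise not well above background. In each array between 33.1% and 38.7% of the member probes were well above background with NM401 and between 32.7% and 39.0% in controls. Over all probes the range was 46.8% to 51.3% with NM401 and 44.3% to 49.2% in controls, so a smaller share of the member probes than of all probes was well above background in both groups. Sult1b1, a sulfotransferase gene that was not tested, had 1 probe well above background on 3 NM401 arrays and on 0 control arrays, and its other probe on 2 NM401 arrays and on 0 control arrays.

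NR8383 cells exposed to NM401 had lower signal for 36 of the 69 tested enzyme genes and higher signal for 8, while 25 did not pass the test. Over all 17444 genes tested, 35.4% were lower and 21.9% were higher at the same threshold. The enzyme genes were thus called lower in 52.2% and higher in 11.6%. The median difference was -0.34 for the enzyme genes and -0.10 for all genes, on the log2 scale. Limited to genes well above background on all 8 arrays, 30 of 57 enzyme genes were lower and 6 were higher, against 37.1% and 23.5% of 15265 genes. The 4 NM401 values lay wholly below the 4 control values for 32 enzyme genes and wholly above them for 7, and such separation was seen downward in 32.2% and upward in 21.0% of all genes. Without 1 array at a time the counts were 30 to 36 lower and 6 to 8 higher. With slide as a block 25 were lower and 3 were higher, and within slide 1, where NM401 replicate 1 stood alone against the 4 controls, 11 were lower and 0 were higher (limma; 3 were higher at an unadjusted p under 0.05). Under those fits 20.2% and 7.80% of all genes were lower, and 12.7% and 4.33% were higher.

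**Figure D1:**
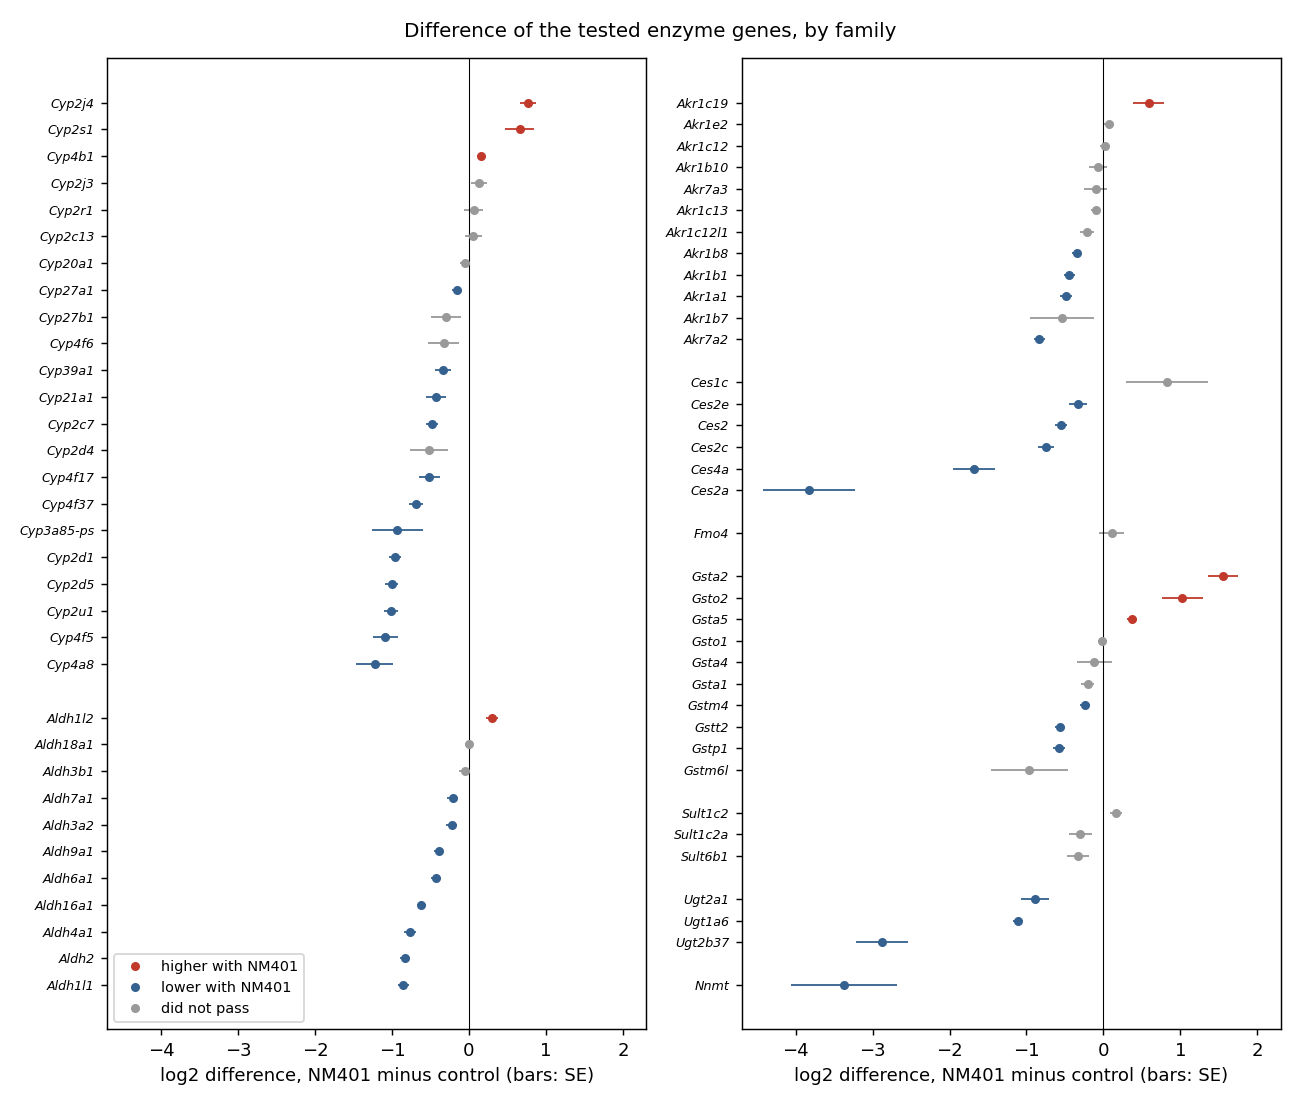
Log2 difference (NM401 minus control, points) with its SE (bars) for the 69 tested enzyme genes, grouped by family and sorted within each family, with 4 arrays per group. The 36 genes called lower lie left of 0 in every family except the Fmo and Sult genes, where no gene was called, and the 8 called higher are Cyp, Aldh, Akr and Gst genes.

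By family, 12 Cyp genes were lower and 3 higher, 8 Aldh genes lower and 1 higher, 4 Akr genes lower and 1 higher, 5 Ces genes lower and 0 higher, and 3 Gst genes lower and 3 higher. All 3 tested Ugt genes and Nnmt were lower, and the 3 Sult genes and Fmo4 did not pass. These counts go by the brightest probe as processed, and include Cyp4b1 (higher), Akr1b8 (lower) and Gsto2 (higher), to which no firm direction is assigned further on. Without them 35 of 66 enzyme genes were lower and 6 higher, with 2 Cyp genes and 2 Gst genes higher and 3 Akr genes lower. Still counted are Gsta5, Cyp2s1 and Akr1c19, at -0.07, -0.06 and -0.06 with normexp, and Cyp27a1, at 0.05 with median scaling. Cyp2d1 and Cyp2d5, Cyp4f5 and Cyp4f37, and Ces2 and Ces2c are counted as separate genes, although the probes of each pair may read both. Family medians were -1.11 for Ugt, -0.65 for Ces, -0.40 for Aldh, -0.38 for Cyp, -0.30 for Sult, and -0.16 for both Akr and Gst. Differences of at least 1 on the log2 scale were called for 9 enzyme genes downward and 2 upward, where 6.09% and 1.89% of all genes reached that size. None of the 36 genes called lower was called higher under any alternative processing. Of the 8 called higher, only Cyp2j4 and Aldh1l2 were still higher after normexp background correction, and Gsto2 was then called lower.

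The carboxylesterases hydrolyse ester and amide bonds in drugs and lipids. Ces2a had values of -6.83, -8.47, -8.52 and -8.56 with NM401, none of them well above background, against -4.57, -5.49, -2.83 and -4.16 in controls, all well above background. The groups did not overlap, and NM401 replicate 1 stood above the other NM401 arrays. The fitted difference was -3.83 ± 0.60 (adjusted p = 0.00111), and since the NM401 side was not measured it is given as at least 7.40-fold lower, relative to the lowest signal that stood well above background on each NM401 array. With normexp the difference was -1.71 and with slide as a block -2.56 (adjusted p = 0.0489), both smaller than that bound, and within slide 1 it missed the threshold (adjusted p = 0.122). A second Ces2a probe was well above background on 1 NM401 array and 2 control arrays and was not tested. RefSeq matched no transcript to either Ces2a probe.

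Ces4a had -4.35, -5.45, -5.35 and -5.49 with NM401, against -3.58, -3.80, -3.48 and -3.06 in controls. It fell by 1.68 ± 0.27 (adjusted p = 0.0013) with no overlap, and NM401 replicate 1 was again the array nearest the controls. RefSeq matched no transcript to this probe. A second Ces4a probe, which it did match to Ces4a, was well above background on 3 NM401 arrays and 2 control arrays. That second probe differed by -0.11 ± 0.22 (adjusted p = 0.692). A further matched probe was well above background on 0 of 8 arrays. The mean of the 2 tested probes was -0.89 (adjusted p = 0.00687), and slide as a block gave -0.87 at the brighter probe (adjusted p = 0.0318). These are the 2 tested probes, at chr19:34969729-34969788 and chr19:34966184-34966243, both on the plus strand, shown because their readings part.
Ces4a, brighter probe: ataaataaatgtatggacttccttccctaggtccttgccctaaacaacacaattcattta
Ces4a, other probe: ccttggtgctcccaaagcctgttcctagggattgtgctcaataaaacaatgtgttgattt
Among the other Ces genes, Ces2c fell by 0.75 ± 0.10 and Ces2 by 0.55 ± 0.07, with the transcripts of both listed for each probe, and Ces2e by 0.33 ± 0.12, the last with overlapping groups and a call that was kept without NM401 replicate 3, control replicate 3 or control replicate 4 only, and was lost with slide as a block (adjusted p = 0.104). Ces1c was the gene of this family that did not pass, at 0.82 ± 0.53 (adjusted p = 0.218), well above background on 4 NM401 arrays and 1 control array, and with normexp it was called lower (-0.45, adjusted p = 0.00827).

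Nnmt transfers a methyl group from S-adenosylmethionine to nicotinamide. Its values were -5.05, -7.60, -8.47 and -6.96 with NM401, of which only replicate 1 was well above background, against -3.35, -3.51, -4.63 and -3.10 in controls. All control arrays lay above all NM401 arrays, and the spread among NM401 arrays was the widest of the tested enzyme genes. Nnmt fell by 3.37 ± 0.69 (adjusted p = 0.00401), and fell by 4.03 without NM401 replicate 1. With slide as a block it was -1.40 and missed the threshold (adjusted p = 0.151), and the other 2 Nnmt probes were not well above background on any array.

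The UDP-glucuronosyltransferases attach glucuronic acid, and Ugt2b37 belongs to the subfamily that also handles steroids. Ugt2b37 had -5.86, -6.16, -6.53 and -6.30 with NM401, against -4.12, -3.27, -2.37 and -3.58 in controls. It fell by 2.88 ± 0.34 (adjusted p = 0.000306), with 3 of 4 NM401 arrays well above background and no overlap. RefSeq matched no transcript to this probe, and the other Ugt2b37 probe, which it did match to Ugt2b37, was well above background on 0 of 8 arrays. Slide as a block gave -2.52 (adjusted p = 0.0149), within slide 1 the same difference had an adjusted p of 0.0594, and normexp gave -1.81.

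Ugt1a6 encodes an enzyme for planar phenols, and its brightest probe reads transcripts of the UGT1A locus. Its values were 1.58, 1.47, 1.38 and 1.52 with NM401, against 2.71, 2.63, 2.58 and 2.50 in controls. The NM401 arrays lay within 0.20 of each other and well apart from the controls. The fall of 1.11 ± 0.07 had the smallest p of the tested enzyme genes (adjusted p = 3.98e-05), the second probe fell by 0.86 ± 0.12, and the difference stood between -1.15 and -0.91 over all alternatives. It was called within slide 1 too (-1.02, adjusted p = 0.0349). Ugt2a1, known from olfactory tissue, fell by 0.89 ± 0.18 (adjusted p = 0.00411), and stood at -0.48 with slide as a block, where it missed the threshold (adjusted p = 0.162).

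**Figure D2:**
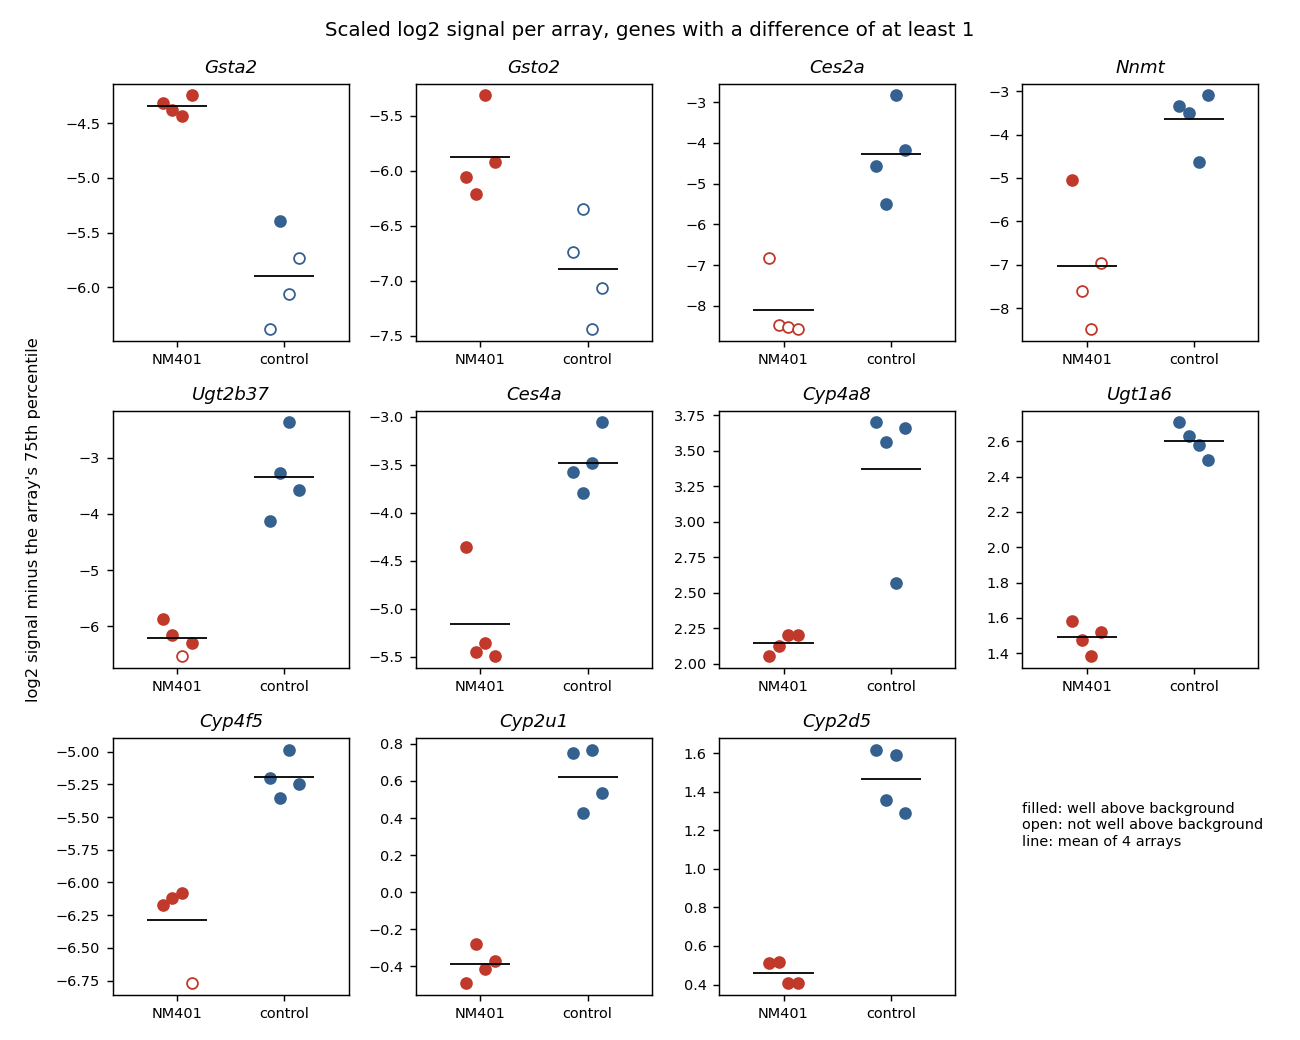
Scaled log2 signal on each of the 4 NM401 arrays (red, left) and 4 control arrays (blue, right) for the 11 enzyme genes called with a difference of at least 1, with means as lines and open points for arrays not well above background; each panel has its own vertical scale. Gsta2 and Gsto2 are higher with NM401 and the other 9 lower, and the open points show that Gsta2, Gsto2, Ces2a and Nnmt rest on a side at or near background.

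Among the cytochrome P450 genes the Cyp4 group, which holds fatty acid hydroxylases, had 4 of its 6 tested genes lower and 1 that did not pass. Over all genes tested 35.4% were lower. Of these 4, Cyp4f5 and Cyp4f37 have probes identical at 50 of 51 shared bases, so they are not separate readings. The remaining gene, Cyp4b1, was called in opposite directions at its 2 probes. Cyp4a8, of the subfamily that hydroxylates the far end of fatty acids, had 2.06, 2.12, 2.21 and 2.20 with NM401, against 3.70, 3.56, 2.57 and 3.66 in controls. Control replicate 3 lay far below the other controls, though still above all NM401 arrays. The fall was 1.23 ± 0.24 (adjusted p = 0.00306), 1.49 without control replicate 3, and 1.32 with slide as a block (adjusted p = 0.0431). The other 2 Cyp4a8 probes were well above background on 0 of 8 arrays. Cyp4f5 had -6.17, -6.12, -6.08 and -6.77 with NM401 (3 of them well above background), against -5.20, -5.35, -4.98 and -5.25 in controls, a fall of 1.09 ± 0.16 (adjusted p = 0.000831). Its near-identical partner probe, that of Cyp4f37, fell by 0.69 ± 0.09, and Cyp4f17 by 0.52 ± 0.14. The Cyp4f17 call was lost with median scaling (-0.31, adjusted p = 0.0807). CYP4F enzymes are known for the hydroxylation of leukotrienes.

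Cyp4b1, an enzyme known from the lung, gave called differences of opposite sign at its 2 probes, 0.16 ± 0.05 at the brighter and -0.24 ± 0.07 at the other, and no direction is assigned to it. The call at the brighter probe was lost without any 1 of the 4 NM401 arrays and without control replicate 1 or 4. Cyp4f6 did not pass at its brightest probe (-0.33 ± 0.20) and fell by 0.43 ± 0.12 at the other. The 2 Cyp4f6 probes overlap by 54 identical bases, so they read nearly the same stretch.

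The Cyp2 genes include drug-oxidising enzymes and fatty acid hydroxylases. Cyp2u1, a fatty acid hydroxylase gene, had -0.49, -0.28, -0.42 and -0.37 with NM401, against 0.75, 0.42, 0.77 and 0.54 in controls, and fell by 1.01 ± 0.09 (adjusted p = 0.000114). A second probe fell by 1.13 ± 0.10, while the remaining one, well above background on 2 NM401 arrays, differed by -0.73 ± 0.56 (adjusted p = 0.296). RefSeq matched no transcript to any of these Cyp2u1 probes. Cyp2d5 had 0.51, 0.52, 0.41 and 0.41 with NM401, against 1.62, 1.36, 1.59 and 1.29 in controls, and fell by 1.00 ± 0.09 (adjusted p = 9.41e-05). The CYP2D enzymes oxidise many basic drugs. The Cyp2d1 probe, with nearly the same sequence, gave values of 0.39 to 0.45 with NM401 and 1.22 to 1.53 in controls, a near copy of the Cyp2d5 values. Cyp2c7 fell at all 4 of its tested probes, by 0.36 to 1.07, and a further probe, well above background on 1 control array, was not tested.

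Cyp2j4 and Cyp2s1 were the Cyp2 genes called higher. Cyp2j4, of a subfamily that makes epoxides from arachidonic acid, had -2.96, -3.09, -3.13 and -3.08 with NM401, against -4.15, -3.66, -3.79 and -3.73 in controls, and rose by 0.76 ± 0.11 (adjusted p = 0.000666). It was still called with normexp, at 0.30 (adjusted p = 0.018), and with slide as a block, at 0.87 (adjusted p = 0.0116). Cyp2s1 was higher by 0.66 ± 0.19 (adjusted p = 0.0181), stood at -0.06 with normexp (adjusted p = 0.673) and at 0.77 with slide as a block (adjusted p = 0.101). Cyp2j3, Cyp2r1, Cyp2c13 and Cyp2d4 did not pass. With normexp, Cyp2r1, Cyp2c13 and Cyp2d4 were called lower (-0.41, -0.38 and -0.76). Cyp2d4 was also called lower with the replicate number as a block (-0.52, limma adjusted p = 0.045), but stood at 0.25 with slide as a block. Cyp2j3 was called higher with median scaling (0.34).

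Sterol and vitamin D enzymes of the Cyp family showed small differences. Cyp27a1, the sterol side-chain hydroxylase gene that is active in macrophages, fell by 0.16 ± 0.06 (adjusted p = 0.0399), and Cyp39a1, an oxysterol hydroxylase gene, by 0.34 ± 0.10. Cyp21a1 fell by 0.42 ± 0.13. All 3 calls were lost with slide as a block (adjusted p = 0.32, 0.108 and 0.132), after quantile normalisation and with median scaling. They also depended on which array was left out. That of Cyp27a1 was kept without control replicate 4 and without NM401 replicate 1 only, that of Cyp39a1 without NM401 replicate 2, control replicate 3 or control replicate 4 only, and that of Cyp21a1 was lost without NM401 replicate 1, NM401 replicate 4 or control replicate 4. Cyp3a85-ps, a Cyp3a pseudogene by its name, had -6.00, -6.86, -7.11 and -6.19 with NM401, 1 of them well above background, against -4.91, -5.86, -5.50 and -6.17 in controls, 3 of them well above background. The groups overlapped, and its fall of 0.93 ± 0.33 (adjusted p = 0.0408) was lost without any of 5 arrays in turn, NM401 replicates 2 and 3 and control replicates 1, 2 and 3, and with slide as a block (-0.39, adjusted p = 0.575). Cyp27b1, whose product activates vitamin D, differed by -0.30 ± 0.19 (adjusted p = 0.209), with values of -4.25 to -4.93 with NM401 and -3.98 to -4.72 in controls that overlapped. Cyp20a1, a P450 with no settled substrate, was at 1.07, 0.89, 0.90 and 0.79 with NM401 and 0.99, 0.98, 0.92 and 0.96 in controls, and did not pass (-0.05 ± 0.07).

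All 11 tested aldehyde dehydrogenase genes were well above background on all arrays. Aldh2, the mitochondrial enzyme that clears acetaldehyde and lipid aldehydes, had 4.78, 4.73, 4.64 and 4.63 with NM401, against 5.56, 5.43, 5.64 and 5.47 in controls. It fell by 0.83 ± 0.07 (adjusted p = 7.15e-05) and by 0.50 ± 0.08 at its second probe, and kept its call within slide 1 (-0.75, adjusted p = 0.0384). Aldh4a1, which oxidises an intermediate of proline breakdown, had 2.62, 2.35, 2.29 and 2.35 with NM401, against 3.24, 3.09, 3.23 and 3.11 in controls, a fall of 0.77 ± 0.08. Aldh16a1 had 3.55, 3.48, 3.37 and 3.39 with NM401, against 4.04, 3.99, 4.09 and 4.13 in controls, a fall of 0.62 ± 0.06. For these 3 genes the arrays of each group lay close together and the groups were far apart.

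The 2 folate dehydrogenase genes of the family were called in opposite directions. Aldh1l1, the cytosolic enzyme that removes the one-carbon group from formyltetrahydrofolate, had -1.10, -0.996, -1.10 and -1.16 with NM401, against -0.34, -0.30, -0.23 and -0.08 in controls. It fell by 0.85 ± 0.07 (adjusted p = 8.54e-05), also within slide 1. Aldh1l2, its mitochondrial counterpart, had -1.08, -0.82, -0.88 and -0.85 with NM401, against -1.21, -1.33, -1.19 and -1.09 in controls. The rise of 0.30 ± 0.08 (adjusted p = 0.0118) rested more on NM401 replicates 2 to 4 than on replicate 1, and with slide as a block it was 0.13 (adjusted p = 0.355). Aldh9a1, Aldh6a1, Aldh3a2 and Aldh7a1, which act on amino acid and lipid aldehydes, fell by 0.40 ± 0.06, 0.43 ± 0.07, 0.23 ± 0.07 and 0.21 ± 0.07. All 4 of these calls ended under median scaling. The Aldh3a2 call was also lost without NM401 replicate 3 or 4 (adjusted p = 0.0514 and 0.053), and the Aldh7a1 call without NM401 replicate 2, 3 or 4 or control replicate 1, 2 or 3. With slide as a block Aldh3a2 stood at -0.08 (adjusted p = 0.487) and Aldh7a1 at -0.12 (adjusted p = 0.433), and neither was called. Aldh18a1 and Aldh3b1 did not pass, at 0.00 ± 0.05 and -0.06 ± 0.07.

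Aldo-keto reductases reduce aldehydes and ketones with NADPH. Akr7a2, which reduces succinic semialdehyde, had 0.48, 0.54, 0.58 and 0.46 with NM401, against 1.30, 1.22, 1.50 and 1.38 in controls, and fell by 0.83 ± 0.07 (adjusted p = 8.89e-05). Akr1a1, the aldehyde reductase gene, had 3.49, 3.38, 3.39 and 3.30 with NM401, against 3.83, 3.77, 4.09 and 3.82 in controls, and fell by 0.49 ± 0.08. Akr1b1, the aldose reductase gene, fell by 0.44 ± 0.08 at its brightest probe and by 0.27 ± 0.09 at the other. Groups did not overlap for Akr7a2, Akr1a1 or the brightest probe of Akr1b1. With slide as a block Akr7a2 kept its call, while Akr1a1 stood at -0.39 (adjusted p = 0.0546) and Akr1b1 at -0.25 (adjusted p = 0.0562).

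Akr1b8, an aldose reductase-like gene, read differently at its 2 probes, and RefSeq matched no transcript to the brighter of them. The brighter had 5.38, 5.38, 5.31 and 5.44 with NM401, against 5.79, 5.65, 5.75 and 5.71 in controls, a fall of 0.35 ± 0.05 (adjusted p = 0.00102). The other had 4.54, 4.53, 4.51 and 4.55 with NM401, against 4.49, 4.41, 4.53 and 4.38 in controls, and did not pass (0.08 ± 0.05). After quantile normalisation the brighter probe stood at 0.04 (adjusted p = 0.574), so no direction is assigned to Akr1b8. Of the 4 tested Akr1c genes, which include hydroxysteroid dehydrogenases, 3 did not pass and Akr1c19 was higher by 0.59 ± 0.20 with overlapping groups (adjusted p = 0.0373). Akr1c19 stood at 0.06 with slide as a block and at -0.06 with normexp, and its call was kept without NM401 replicate 1 or control replicate 4 only. Akr1b10, Akr1b7, Akr7a3 and Akr1e2 did not pass. The names Akr1c12 and Akr1c13 are those of the array, and RefSeq gives them the other way round.

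Glutathione S-transferases conjugate electrophiles to glutathione, and their genes were called both ways on the processed signal. None of the 3 called higher, Gsta2, Gsta5 and Gsto2, was still called higher with normexp. Gsta2, an alpha-class gene whose product also reduces lipid peroxides, had -4.31, -4.38, -4.44 and -4.24 with NM401, against -6.38, -5.40, -6.07 and -5.73 in controls, where 1 array was well above background. It rose by 1.55 ± 0.19 (adjusted p = 0.000366) with no overlap, and slide as a block gave 1.58 (adjusted p = 0.0122), while within slide 1 it missed the threshold (adjusted p = 0.0544). With normexp the difference was 0.14 (adjusted p = 0.21), and with the deposited median pixel signal it was 0.32 (adjusted p = 0.024), so its size depended on the background method. Gsta5 rose by 0.37 ± 0.07 (adjusted p = 0.00198) and stood at -0.07 with normexp. Gsta1 did not pass, at 2.55, 2.37, 2.41 and 2.31 with NM401 and 2.67, 2.60, 2.78 and 2.42 in controls (-0.21 ± 0.09, adjusted p = 0.0785).

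Gsto2, an omega-class gene whose product reduces dehydroascorbate, had -6.05, -6.21, -5.31 and -5.91 with NM401, against -6.74, -6.35, -7.44 and -7.06 in controls, none of which was well above background. It was at least 1.64-fold higher on the processed signal (adjusted p = 0.0115), and missed the threshold with slide as a block (0.84, adjusted p = 0.179). With normexp it was called lower (-0.46, adjusted p = 0.00334), and with the deposited median pixel signal too (-0.29, adjusted p = 0.0418). Its direction therefore turned with the background method. The related Gsto1 did not pass, with 2.58, 2.42, 2.48 and 2.41 with NM401 and 2.42, 2.56, 2.45 and 2.50 in controls, and was called higher with median scaling (0.19).

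Gstp1, the pi-class gene that is the main transferase of many cells outside the liver, had 1.68, 1.78, 1.79 and 1.69 with NM401, against 2.18, 2.33, 2.24 and 2.52 in controls. It fell by 0.58 ± 0.08 (adjusted p = 0.000611) and by 0.48 ± 0.08 at its second probe, and by 0.64 with slide as a block (adjusted p = 0.0125). Gstt2, of the theta class, fell by 0.57 ± 0.07 at its brightest probe, and Gstm4, of the mu class, by 0.24 ± 0.07. Of the 3 tested Gstt2 probes 2 were called lower and 1 did not pass, with differences from -0.87 to -0.29. The Gstm4 call was lost with median scaling (-0.04, adjusted p = 0.744) and without the filter on dim probes (adjusted p = 0.0586). Gsta4 and Gstm6l did not pass.

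The sulfotransferases and the flavin monooxygenase gene gave no call at their brightest probes. Sult1c2, at 3.75, 3.76, 3.73 and 3.82 with NM401 and 3.65, 3.80, 3.48 and 3.47 in controls, did not pass (0.16 ± 0.08, adjusted p = 0.118). Of its 5 other probes 3 were called higher, by 0.23, 0.31 and 0.32, and 2 did not pass. Shared stretches of Sult1c2 probes matched at 50 of 52 and at 39 of 39 bases, so not all of them are separate readings. Sult1c2 was called higher after quantile normalisation (0.34), with median scaling (0.37) and with the mean of its probes (0.16). Sult1c2a (-0.30 ± 0.15) and Sult6b1 (-0.34 ± 0.14) did not pass, and both were called lower with normexp (-0.61 and -0.75). Of the 3 tested Sult1c2a probes 1 was called lower and 2 did not pass, with differences from -0.68 to -0.30. Their mean was called lower (-0.44, limma adjusted p = 0.0276). Fmo4 had -6.50, -6.01, -5.92 and -6.29 with NM401, all well above background, and -6.31, -6.59, -6.03 and -6.22 in controls, none of them well above background. The scaled values overlapped (0.10 ± 0.16), and with normexp it was called lower (-0.62, adjusted p = 0.000949).

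Of the 18 enzyme genes with several tested probes, 7 were called the same way at all their probes, 3 had no called probe, 7 had both called and uncalled probes, and 1, Cyp4b1, had called probes of opposite sign. Over all 21684 tested probes 34.1% were called lower and 22.1% higher. Over all genes 188 of 3315 with several tested probes had calls of opposite sign. The 7 were Akr1b1, Aldh2, Aldh4a1, Aldh9a1, Cyp2c7, Gstp1 and Ugt1a6, and all their tested probes were lower. The 2 Aldh9a1 probes overlap by 56 identical bases, and 2 of the Cyp2c7 probes match at 40 of 42 bases. Their agreement is therefore not that of separate readings. The share of all genes called the same way at all their probes was not counted.

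**Figure D3:**
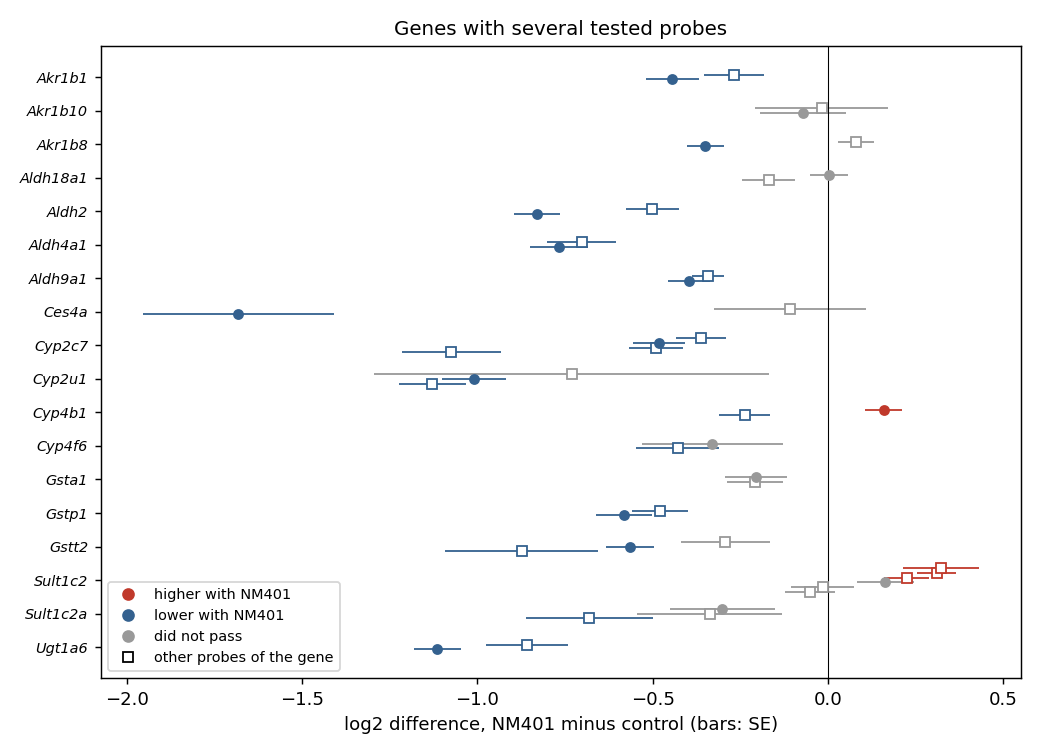
Log2 difference (NM401 minus control) with its SE at each tested probe of the 18 enzyme genes that had several, with filled circles for the brightest probe and open squares for the others. Probes of Aldh4a1, Gstp1 and Ugt1a6 lie together left of 0, while those of Ces4a (-1.68 and -0.11) and Cyp4b1 (0.16 and -0.24) lie apart.

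Precision differed with brightness. For the 57 genes well above background on all arrays the SE was 0.05 to 0.27, with a median of 0.08. For the other 12 it was 0.12 to 0.69, with a median of 0.33. Of those 12, 5 were well above background on all NM401 arrays and not on all control arrays, among them Gsta2, Gsto2 and Fmo4, and 4 on all control arrays and not on all NM401 arrays, namely Ces2a, Nnmt, Ugt2b37 and Cyp4f5. Being well above background depends on the raw signal, which was higher on NM401 arrays.

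**Figure D4:**
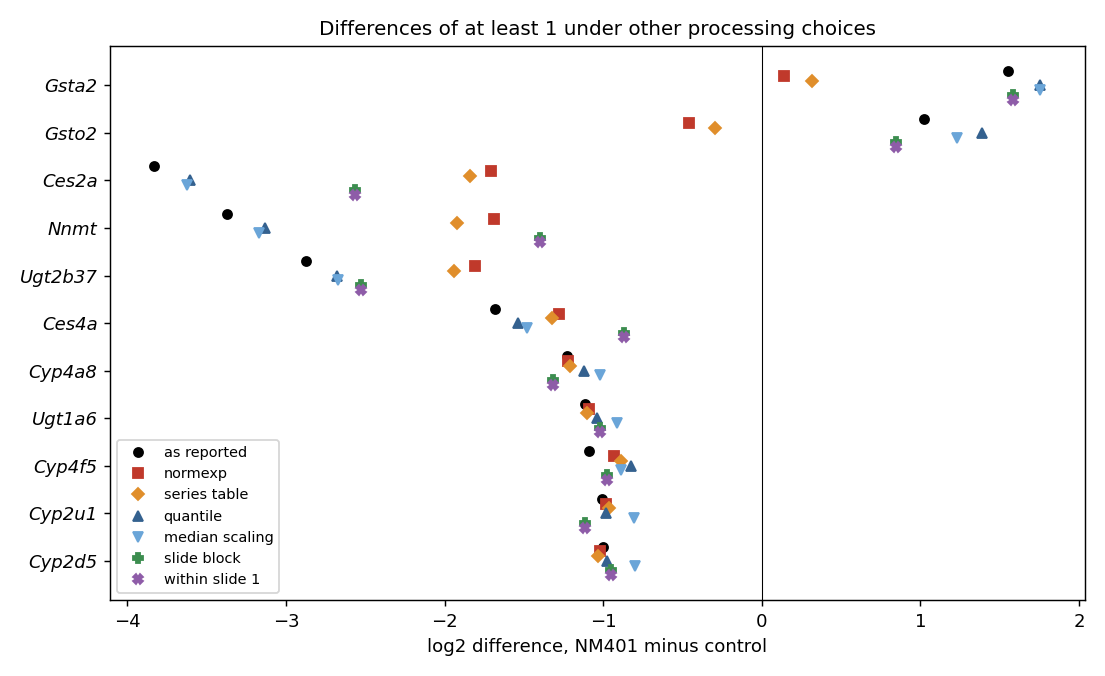
Log2 difference (NM401 minus control) of the 11 enzyme genes with a difference of at least 1, as reported (black circles) and under 6 other processing choices. Slide as a block and within slide 1 give the same difference for each gene, because only slide 1 holds both groups. The 4 genes from Ugt1a6 down move little, Ces2a and Nnmt lie nearer 0 with normexp and with slide as a block, and Gsto2 changes sign with normexp and with the deposited series table.

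Genes called the same way in every alternative in which they were tested numbered 10 among the lower and 0 among the higher. The 10 were Cyp2d1, Cyp2d5, Cyp2u1, Cyp4f5, Aldh1l1, Aldh2, Aldh4a1, Aldh16a1, Akr7a2 and Ugt1a6. The Cyp2d1 and Cyp2d5 probes share nearly all their bases, so these 2 are not separate readings. Of the genes called lower this was 27.8% of the enzyme genes and 18.2% of all genes, and of the genes called higher 15.7% of all genes. For 17 of the 36 genes called lower NM401 replicate 1 was the highest of the NM401 arrays, and over all 6178 genes called lower this share was 43.8%.

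Genes around these enzymes were read from lists chosen with earlier results of these data known, and their counts stand beside the 35.4% lower and 21.9% higher of all genes tested. Of 15 regulators of drug metabolism 10 were tested, with 3 higher, 3 lower and 4 that did not pass (median -0.04). Nr1i2, which encodes the xenobiotic receptor PXR, fell by 0.60 ± 0.09 (adjusted p = 0.000861), and the AHR-induced repressor gene Tiparp was higher by 0.34 ± 0.07, at 0.14 with normexp (adjusted p = 0.073). Nr1h4, the gene of the bile acid receptor FXR, had -6.26, -8.30, -7.32 and -8.59 with NM401, 1 of them well above background, against -5.33, -5.59, -5.43 and -4.85 in controls. It fell by 2.32 ± 0.48, and slide as a block gave -0.96 (adjusted p = 0.155). Ahr, Ahrr and Ppara were not well above background on any array, and the NRF2 gene Nfe2l2 did not pass (0.09 ± 0.07).

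Of 17 genes that supply electrons or cosubstrates 16 were tested, with 4 higher, 5 lower and 7 that did not pass (median 0.04). Ahcy, which removes the by-product of methyl transfer, fell by 0.47 ± 0.05, and Cyb5r1, a cytochrome b5 reductase gene, rose by 0.39 ± 0.06. Papss2, which makes the sulfate donor, was higher by 0.75 ± 0.09 on the processed signal and called lower with normexp (-0.20, adjusted p = 0.0402). Por, the reductase that feeds electrons to microsomal P450s, did not pass (-0.17 ± 0.07, adjusted p = 0.0634).

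Other phase I and II enzymes outside the name rule were lower in 15 of 23 tested genes of 30, with 0 higher and 8 that did not pass (median -0.37), where all genes were lower in 35.4% and had a median of -0.10. The formaldehyde dehydrogenase gene Adh5 fell by 0.65 ± 0.07 (adjusted p = 0.000187), the epoxide hydrolase gene Ephx2 by 0.83 ± 0.09 and the microsomal transferase gene Mgst2 by 0.41 ± 0.05. Nqo1, a quinone reductase gene that NRF2 induces, did not pass (0.02 ± 0.07). Of 10 efflux transporter genes 6 were tested, with 2 higher, 2 lower and 2 that did not pass. Abcc4 fell by 0.64 ± 0.06 (adjusted p = 0.000102) and Abcc2 by 0.34 ± 0.11 (adjusted p = 0.0324), the Abcc2 call being lost without any of 5 arrays in turn. Abcb1b, a P-glycoprotein gene, was at least 2.66-fold higher on the processed signal, with no control array well above background, and stood at -0.13 with normexp (adjusted p = 0.307).

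Marker genes were read beside these results. Of 11 macrophage markers used here 10 were well above background on all arrays and Marco on none, and 3 of the 10 were higher and 3 lower with NM401. Of 8 hepatocyte markers only Ahsg was tested and fell by 0.86 ± 0.09, while Alb, Fgb, Serpina1, Tat and Ttr were not well above background on any array. The summed linear signal of the hepatocyte list, in units of each array's 75th percentile, was 1.21 to 1.38 with NM401 and 2.16 to 2.81 in controls. Nearly all of that sum was Ahsg, at log2 values of 0.24 to 0.45 with NM401 and 1.08 to 1.47 in controls. The sum therefore adds little to the Ahsg reading and does not describe the list as a whole. The part of this signal in the result was not tested. Of the 8 airway and alveolar epithelium markers 1 was tested and did not pass, and Cdh1, Epcam, Krt18 and Scgb3a2 were not well above background on any array. Among the 6 fibroblast markers Dcn was higher by 1.49 and Col1a2 fell by 1.20, while Col1a1, Col3a1, Lum and Pdgfra did not stand well above background on a single array. Of 6 neutrophil markers 3 were tested, Mpo, Camp and S100a8, and all 3 were lower, where 35.4% of all genes were lower. Mpo was well above background on 0 NM401 arrays and 4 control arrays. Camp and S100a8 had overlapping groups, and S100a8 was well above background on 1 NM401 array and 3 control arrays. The summed signal of the list was 0.32 to 0.44 with NM401 and 0.47 to 0.66 in controls, most of it from Camp. Of 6 lymphocyte markers Cd3d was tested and was lower.

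Promoter sequences of the members were read from RefSeq (assembly GRCr8, a window mostly upstream of each gene's start), where 151 of the 188 genes had one. The AHR core GCGTG, searched on both strands, was in 40 of these 151 (26.5%) and in 29.7% of all 33469 promoters, and the antioxidant response element core TGACNNNGC in 17 (11.3%) and in 12.1% of all. Among the 57 promoters of tested genes the shares were 35.1% and 14.0%. The promoters of 3 genes are shown because their genes hold such a core and were called in different directions, with the cores on either strand in capitals. They are those of Gsta2, which was higher (chr8:88077043-88077342, minus strand), and of Gstp1 (chr1:210769656-210769955, minus strand) and Ugt1a6 (chr9:96194768-96195067, plus strand), which were lower. The Gsta2 call was lost with normexp (0.14, limma adjusted p = 0.21). The brightest Ugt1a6 probe reads transcripts of the UGT1A locus, so its lower signal cannot be assigned to the promoter printed here.
Gsta2 promoter: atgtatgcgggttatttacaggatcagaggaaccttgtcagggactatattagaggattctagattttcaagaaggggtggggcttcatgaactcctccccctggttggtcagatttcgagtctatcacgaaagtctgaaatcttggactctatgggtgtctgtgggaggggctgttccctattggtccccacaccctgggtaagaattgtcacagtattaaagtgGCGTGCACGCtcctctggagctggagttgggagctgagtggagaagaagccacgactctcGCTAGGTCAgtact
Gstp1 promoter: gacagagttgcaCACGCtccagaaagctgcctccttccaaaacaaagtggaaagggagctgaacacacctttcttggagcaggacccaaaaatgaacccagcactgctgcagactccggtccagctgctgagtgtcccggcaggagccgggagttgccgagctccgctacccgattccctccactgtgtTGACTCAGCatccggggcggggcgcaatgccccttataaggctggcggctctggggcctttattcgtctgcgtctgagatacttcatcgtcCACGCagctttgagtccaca
Ugt1a6 promoter: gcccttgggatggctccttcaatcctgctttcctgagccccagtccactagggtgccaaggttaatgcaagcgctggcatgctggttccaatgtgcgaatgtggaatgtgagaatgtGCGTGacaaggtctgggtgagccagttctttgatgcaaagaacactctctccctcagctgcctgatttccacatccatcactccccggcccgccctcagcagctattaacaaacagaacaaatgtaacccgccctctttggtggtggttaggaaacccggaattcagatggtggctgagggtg
The Gsta2 and Gstp1 sequences hold both cores and the Ugt1a6 sequence the AHR core alone. A core in the sequence is a description and says nothing of binding in these cells.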

How the data were processed

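RNA of 4 NM401 and 4 control cultures was Cy3-labelled and read on 1-colour arrays, per the labels' protocols. The deposited scanner files hold an intensity per spot from Feature Extraction (version 11.0.1.1, per the file headers), and their processed signal had the background subtracted and no scaling across arrays. Their series table equalled the median pixel signal for 503808 of 503808 values, so it is a linear, unscaled intensity. Spots with an outlier mark were removed, replicate spots were averaged as log2 values, and 47 probes (no member) were dropped. log2 of the processed signal minus each array's 75th percentile was fitted with limma 3.58.1 (lmFit, eBayes, two-sided) in R 4.3.3, with Benjamini-Hochberg adjustment over 21684 probes well above background on at least 4 arrays. A gene was its brightest tested probe. The number of arrays, 4 per group, limits the precision. No spot was saturated (0 on the 8 arrays). Where all 4 arrays of a group failed the background call, the difference is given as a bound: the measured group's mean was set against a floor, which on each array is the lowest value called well above background, or the probe's own value if that is higher.

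Gene names are the array's own. RefSeq (GRCr8, names only) matched 225 of the 269 member probes by accession and gave another name to 9. The brightest probes of Ces2a, Ces4a, Cyp2u1, Cyp4f37, Akr1b8 and Ugt2b37 were among those not matched, so these genes rest on the array's own naming. Genes were named if called without overlap at a difference of at least 1, if among the 3 brightest of a family, or if among the 3 smallest p-values of a surrounding list, and further members are given by value to complete a family, some chosen after their values were seen. The members and lists were chosen with earlier results of these data known. Alternatives were normexp background correction (offset 50) on the mean signal, quantile normalisation, median scaling, no filter, a filter on all 8 arrays, the series table, the mean of a gene's probes, the replicate number as a block, slide as a block, slide 1 alone, and leaving out each array. The fit was tested on simulated data.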

Additional observations from a re-analysis of the deposited data

Results flagged for a closer look

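Among 40 named genes with 2 groups each, 4 of 80 groups held an array far from the other 3, and chance flags about 1 in 20 groups. Ces2a on NM401 replicate 1 was at -6.83, where the other NM401 arrays were at -8.56 to -8.47, all of them not well above background. Ces4a on NM401 replicate 1 was at -4.35, with the others at -5.49 to -5.35. This is the NM401 array that shared slide 1 with the controls. Cyp4a8 on control replicate 3 was at 2.57, where the other controls were at 3.56 to 3.70. Cyp4f5 on NM401 replicate 4 was at -6.77, with the others at -6.17 to -6.08, and only the array at -6.77 was not well above background.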

How the results depend on the processing

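As reported, 8 enzyme genes were higher and 36 lower, with 3823 and 6178 of all genes. Enzyme genes called higher numbered 2 with normexp, 13 with median scaling, 3 with the deposited series table, 3 with slide as a block and 0 within slide 1 (limma; 3 of 69 were higher at an unadjusted p under 0.05). Enzyme genes called lower numbered 23 with median scaling and 11 within slide 1. For all genes the counts were 6113 higher and 3360 lower with median scaling, 9406 lower with normexp, 2216 higher and 3525 lower with slide as a block, and 755 higher and 1361 lower within slide 1. The share of calls that were higher was 18.2% for the enzyme genes and 38.2% for all genes as reported, 23.7% and 49.5% after quantile normalisation, and 36.1% and 64.5% with median scaling, which moved the median of all genes to 0.11. The enzyme median stayed 0.13 to 0.29 below that of all genes in each alternative. Leaving out 1 array gave 6 to 8 enzyme genes higher and 30 to 36 lower, and 3271 to 3704 and 5410 to 6145 of all genes. Direction turned with a call for Gsto2 (-0.46 with normexp, -0.29 with the series table), Fmo4 (-0.62, -0.54), Ces1c (-0.45 with normexp), Cyp2c13 (-0.38), Cyp2r1 (-0.41), Papss2 (-0.20 with normexp) and Gsto1 (0.19 with median scaling). The sign turned without a call for Papss2 with the series table (-0.0836), Abcb1b (-0.13, -0.0015), Akr1b8 (0.0429 after quantile normalisation), and Gsta5, Cyp2s1, Akr1c19, Cyp4b1 and Cyp27a1 in at least 1 alternative. The cause was not tested. Replicate numbers did not pair the arrays, since the correlations of same-numbered deviations were 0.19, -0.0028, 0.08 and -0.07. With the replicate number as a block, 7 enzyme genes were higher and 35 lower, and 3535 and 5845 of all genes. The slide fits rest on NM401 replicate 1 alone and assume that it varies like the other arrays.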
